A study of Mus musculus with 2 samples.

Results

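The 76 genes described here encode proteins of the cytosolic ribosome. They were chosen by name: genes with at least 1 protein-coding transcript whose symbol is Rpl or Rps followed by a number, with at most the letter a, x or y after it, together with Rplp0, Rplp1, Rplp2 and Rpsa. The kinases whose names start with Rps6k and paralogs whose names end in l were left out. The rule found the same 76 of 55536 listed genes in both libraries, 46 of the large subunit and 30 of the small one. Fau and Rps3a1 also encode ribosomal proteins but are outside the name rule.

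RNA came from the nuclear fraction, labelled nucleoplasmic, of bone-marrow-derived macrophages of C57BL/6J mice, and ribosomal RNA had been depleted. The cells were exposed to Lipid A, the part of lipopolysaccharide that TLR4 recognises, at 100 ng/ml for 12 h, washed for 12 h, and exposed again at 100 ng/ml for 10 min. Biological replicates 1 and 2 form the only group, from 1 µg and 500 ng of starting RNA, with a size range of 250 to 400 for both. The libraries share a donor identifier, and nothing in the labels says whether they came from separate cultures or animals, so their spread may be technical. No untreated cells were analysed here, no condition was compared, and no p-value was computed.

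Ribosomal protein mRNAs are among the most abundant mRNAs of growing cells, and their translation is set through a pyrimidine tract at the 5′ end, the TOP motif, which the mTOR pathway controls through LARP1. Most of these genes are short, several carry small nucleolar RNA (snoRNA) genes in their introns, and some of the proteins, among them human RPL3, RPL12 and RPS13, are known to act on the splicing of their own pre-mRNA. In a nuclear fraction, precursor RNA with introns and finished mRNA awaiting export are read together. Reads of a precursor and of a lastingly retained intron cannot be told apart in these tables.

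The annotation gives the 76 genes 472 transcripts, from 1 to 19 per gene (Rpl13a) with a median of 6. Of these, 217 are protein_coding, 171 retained_intron, 61 processed_transcript (no reading frame annotated) and 23 nonsense_mediated_decay (a reading frame that ends early enough for the mRNA to be a likely target of that decay pathway). Retained-intron models belong to 61 genes, processed transcripts to 25 and nonsense-mediated decay models to 17. Only 7 genes have protein_coding transcripts alone. Of the 472 transcripts, 261 held at least 10 expected counts in both libraries and 68 held 0 in both.

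The retained-intron models are defined by splice sites of coding transcripts that they run through. Of the 171 models, 170 read through at least 1 such site, and 86 contain a whole intron of a coding transcript. The whole introns number 113 in 42 genes, from 76 to 2369 bases long with a median of 262, and all 113 begin with GT and end with AG. The sites below belong to models with much of the TPM in genes with the largest retained-intron shares. The sequences are from the GENCODE M21 transcripts (GRCm38, the build of mm10), 5′ to 3′, with intron bases in capitals and exon bases in lower case.
Rps20-201 donor, chr4:3835474-3835488, minus strand: ccatgGTGAGGTGGG
Rps20-201 acceptor, chr4:3835282-3835306, minus strand: CCTGGGTGATAACAGgcatttaaag
Rpl3-204 donor, chr15:80081605-80081624, minus strand: ataagaactgGTAAGAGGCT
Rpl3-204 acceptor, chr15:80081022-80081046, minus strand: GCTCTGCTCCTGAAGgcacaagtct
Rps16-203 acceptor, chr7:28350977-28351001, plus strand: CCTCGCCCTTCACAGaaaacagcca
Rps26-202 acceptor, chr10:128626231-128626255, minus strand: TCTTTCCATTCTCAGaccaaaaaaa
Rpl37-205 acceptor, chr15:5117272-5117296, plus strand: TCTTTTAATGTGCAGacgaagggaa
Rpl5-202 donor, chr5:107903859-107903878, plus strand: tccctcatagGTAATAGATA
Rpl5-204 acceptor, chr5:107904702-107904726, plus strand: AAATTTTCATCTTAGtaccaaacga
Rps20-201 and Rpl3-204 hold their introns whole, of 192 and 583 bases. The Rpl5 donor and acceptor bound the same 848-base intron, but Rpl5-202 enters it from the 5′ side and Rpl5-204 leaves it on the 3′ side, each as a separate annotated fragment.

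The start of the mRNA was examined in RefSeq promoter windows (GRCm38.p6), which cover 56 of the 76 genes with 66 windows. A TOP motif, taken as C followed by at least 4 pyrimidines, stood exactly at the annotated start in 13 of the 66 windows, 19.7%, against 2.51% of all 32851 windows. Within 10 bases of the annotated start it began in 54.5% and 30.7%, so the exact count depends on where the start was annotated. CCGGAAG on either strand, the core that ETS factors recognise, was present in 36.4% of the genes' windows and in 8.86% of all windows. AAGATGG, a core of YY1 sites that can overlap the start codon, was present in 16.7% and 6.34%, and TATAAA in 9.09% and 13.6%. A match is only a match of letters. Examples with tracts of 8 to 13 bases, chosen after their values were seen, are shown to give the motif itself, with 10 bases before the annotated start and the tract in capitals.
Rpl15, chr14:18270967-18270996, minus strand: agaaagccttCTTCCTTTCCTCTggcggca
Rpl35, chr2:39005112-39005141, minus strand: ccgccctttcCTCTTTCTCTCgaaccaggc
Rps10, chr17:27635225-27635254, minus strand: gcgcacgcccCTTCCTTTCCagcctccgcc
Rps6, chr4:86857348-86857377, minus strand: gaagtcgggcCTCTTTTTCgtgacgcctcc
Rpl38, chr11:114668570-114668599, plus strand: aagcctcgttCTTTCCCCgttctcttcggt
The tracts run for 13, 11, 10, 9 and 8 bases. Rps6 encodes the protein that S6 kinases, targets of mTOR, phosphorylate.

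Depth was 24444219 expected counts on genes in replicate 1 and 18051097 in replicate 2; an expected count is the read number assigned to a gene by estimation, and it can be fractional. All 10 macrophage markers examined, from Spi1 and Cd14 up to Lyz2, were detected in both libraries, and none of the markers of B cells, T cells, neutrophils, erythroid cells, fibroblasts and mast cells was, at no more than 0.60 TPM (S100a9). The 3 nuclear RNAs examined, Malat1, Neat1 and Rn7sk, took 17.70% and 16.05% of all gene counts. In bulk RNA, fewer cells of a type and less RNA per cell cannot be told apart.

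All 76 ribosomal protein genes were detected, meaning that each library gave them 10 or more counts and a TPM, a level scaled by length and library size, of 1 or more. Across all 22028 protein-coding genes, 42.9% were. The 76 genes took up 0.214% of all counts in replicate 1 and 0.207% in replicate 2 (0.211% ± 0.00537, SD, n = 2), or 52405 and 37328 counts. Their median TPM was 26.6 in each library, against 7.30 and 8.56 over the 9443 detected protein-coding genes. Both subunits stood at like levels, with a median TPM of 26.2 and 25.5 for the large and 27.8 and 28.5 for the small subunit.

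Although the proteins are needed in nearly equal numbers, the genes' nuclear RNA spanned 11.6-fold between the lowest and the highest TPM in replicate 1 and 21.97-fold in replicate 2. The middle of the distribution was narrower, with quartiles at 19.2 and 37.7 in replicate 1 and at 17.9 and 40.4 in replicate 2. The SD of log2 TPM among the 76 genes was 0.83 and 0.91, against 1.67 and 1.61 among all detected protein-coding genes. Across genes the order was shared by the libraries (Pearson r = 0.924 for log2 TPM, n = 76 genes that share both libraries).

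Rps24, a small-subunit protein whose gene is mutated in some families with Diamond-Blackfan anaemia (chromosome 14, 24487125 to 24496959, ENSMUSG00000025290.17), had the highest level, 104.4 TPM in replicate 1 and 135.8 in replicate 2 (120.1 ± 22.2, SD, n = 2). Rpl41, which encodes a very short basic peptide of the large subunit, followed at 99.5 and 109.3 TPM (104.4 ± 6.99), within the spread of Rps24. Rpl10, which joins the large subunit late in the cytoplasm, stood at 83.4 and 85.2 TPM. Rps9 and Rpl3 completed the 5 highest and did not differ beyond their spread: Rps9 was at 85.4 and 59.2 TPM (72.3 ± 18.5), and Rpl3, a protein close to the peptidyl transferase centre, at 60.2 and 74.6 (67.4 ± 10.2).

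By the mean of both libraries the 5 lowest were Rpl14 (9.03 and 9.56 TPM), Rpl36a (9.88 and 9.52), Rps26 (9.60 and 9.92), Rpl35 (9.22 and 12.1) and Rpl27 (12.2 and 9.35). Rps26 lay above Rpl14 in both libraries. The ranges of the other pairs overlapped, so no further order among the 5 is given. In replicate 2 alone the lowest was Rpl36, at 6.18 TPM against 16.1 in replicate 1. Rps26, which lies near the mRNA exit channel, is also among the genes with the highest retained-intron share below, so little of its low level was on the coding model: 2.37 and 3.31 TPM.

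**Figure D1:**
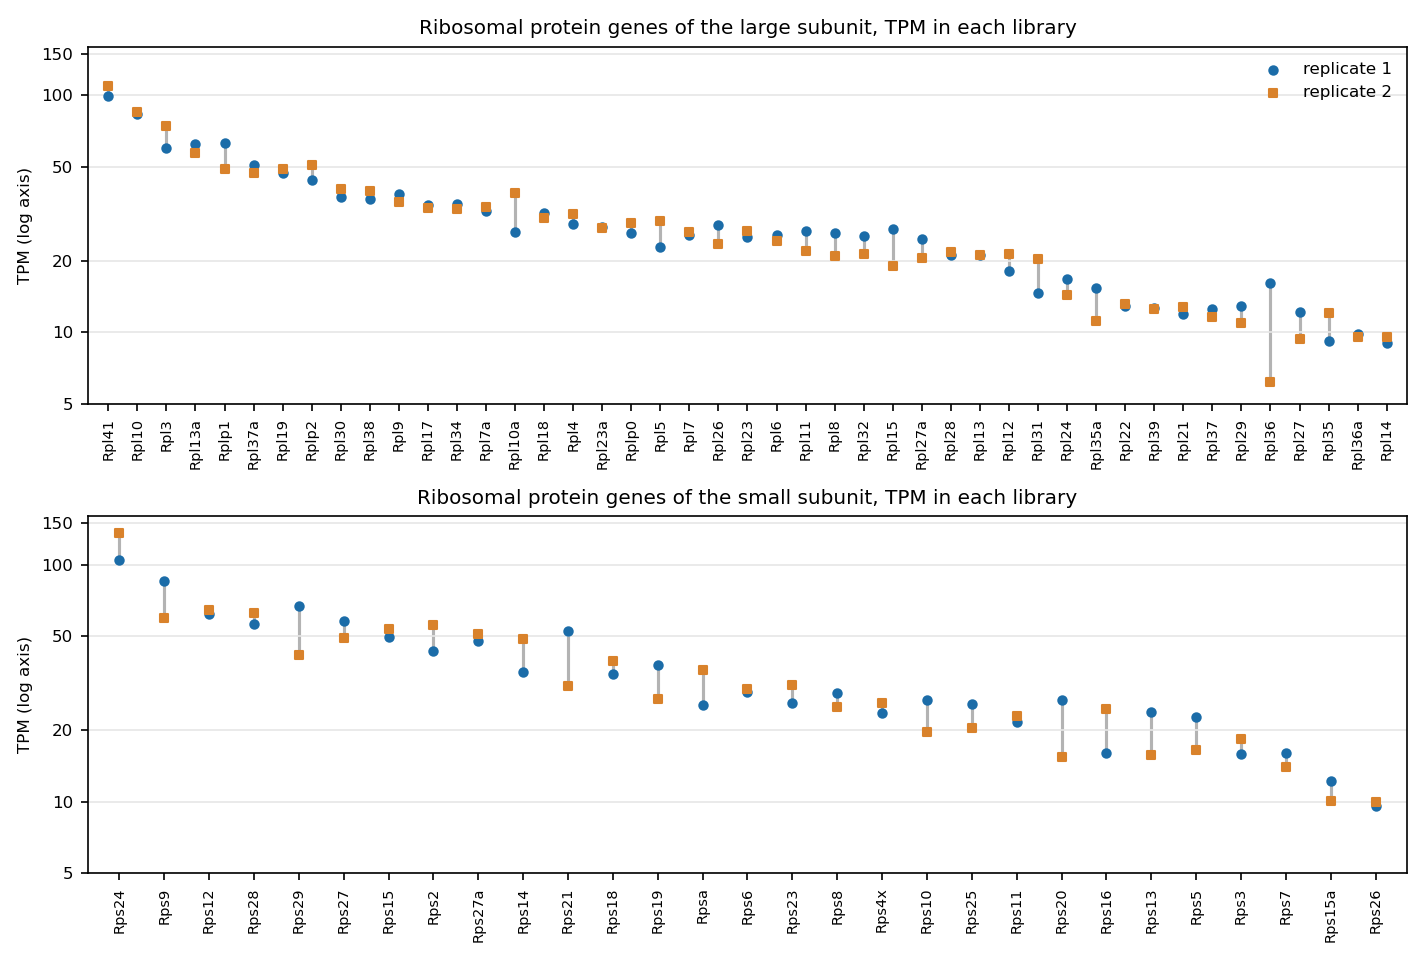
TPM on a log axis for the large-subunit genes (top) and small-subunit genes (bottom) that are reported by name, ordered by mean; circles are replicate 1, squares replicate 2, and a line joins the libraries. Rps24 and Rpl41 lie highest, most genes lie between 10 and 60 TPM, and Rpl36 shows the widest gap, from 16.1 to 6.18 TPM.

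Most of the TPM lay on protein_coding transcripts, with a median over the 76 genes of 82.0% in replicate 1 and 79.5% in replicate 2 (80.8% ± 1.82, SD, n = 2). All 9448 genes with a protein-coding transcript and a TPM of at least 1 had a median of 75.9% and 75.6%. The quartiles of the 76 genes were 62.7% and 91.3% in replicate 1 and 57.3% and 91.3% in replicate 2, and 22 and 23 genes stood above 90%. The leading transcript, the one with the most TPM, was the same model in both libraries for 67 genes. It was a protein_coding model in both for 62 genes, a retained-intron model for 8, a nonsense-mediated decay model for 3 (among them Rpl12 and Rpsa), and of a different type in each library for 3 (Rpl14, Rpl28 and Rps23). Neither these counts nor the count above 90% was made over all genes, so none is read as particular to the family.

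In 13 of the 76 genes, under 50% of the TPM was on protein_coding transcripts in both libraries, which is 17.1% of them. Among all genes with such a transcript the share was 16.8%, so the count is near the background. The 13 were Rpl3, Rpl5, Rpl10, Rpl10a, Rpl12, Rpl13a, Rpl27a, Rpl37, Rps16, Rps20, Rps23, Rps26 and Rpsa. Of these, 10 were below 50% also by share of counts and in the other quantification (a second deposited table per library, derived directly from reads). The other 3, Rpl10, Rpl27a and Rps20, depended on how the share was taken. In the other quantification the leading transcript was a protein_coding model in both libraries for 56 genes. It was a retained-intron model for 13 and a nonsense-mediated decay model for 2.

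**Figure D2:**
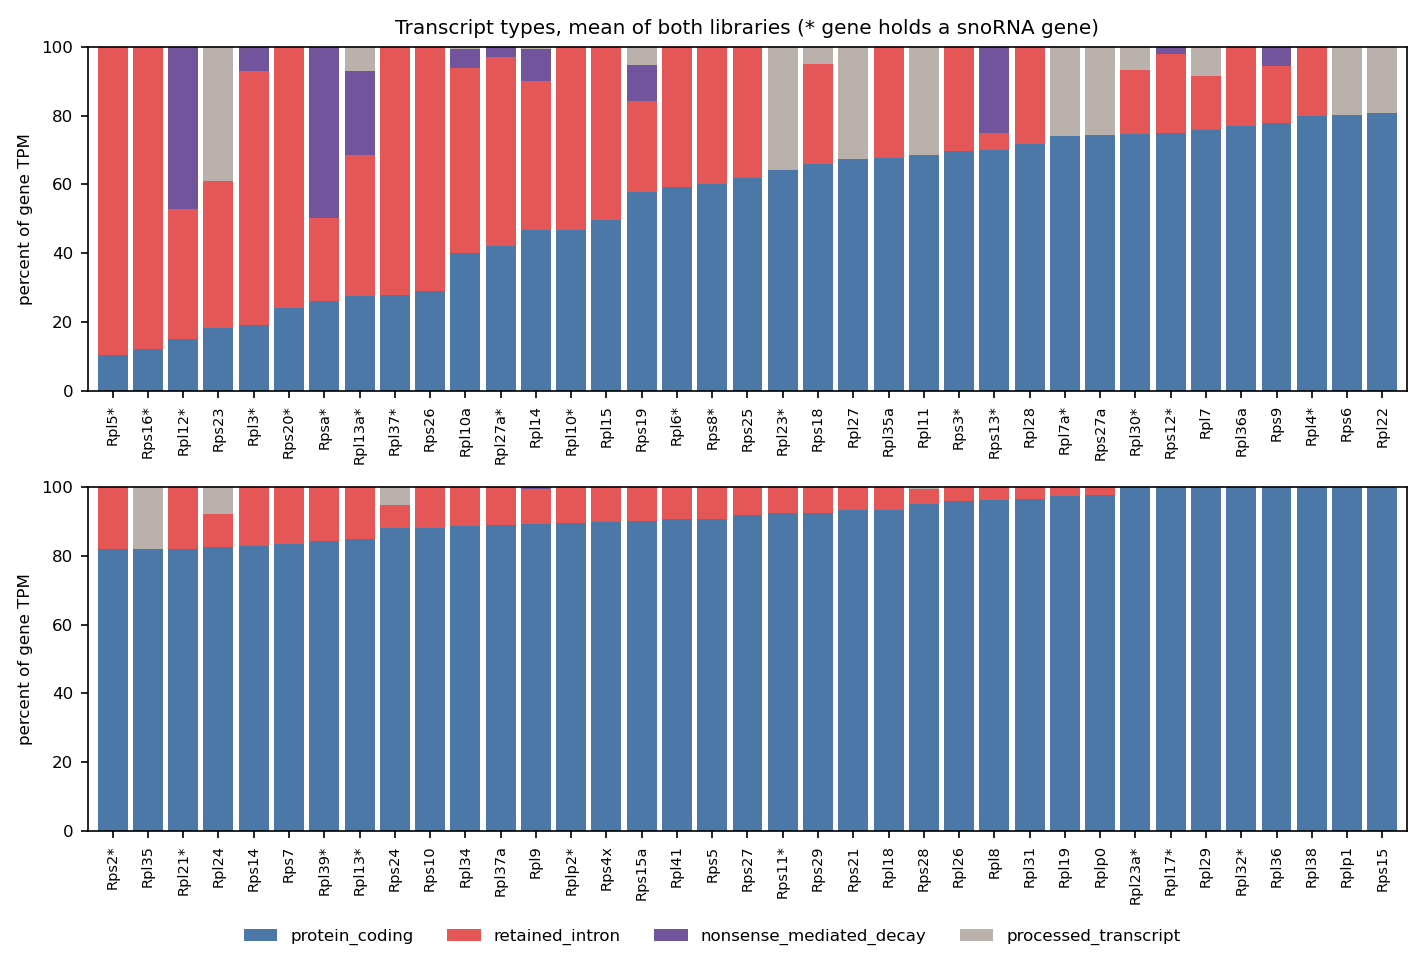
Percent of each gene's TPM on each annotated transcript type, mean of both libraries, for the genes reported by name, in order of the protein_coding share; an asterisk marks genes that hold a snoRNA gene. Rpl5, Rps16 and Rpl12 lie at the low end, and the last genes have all their TPM on protein_coding models.

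Retained-intron transcripts held a median of 17.3% of the TPM in replicate 1 and 15.9% in replicate 2 (16.6% ± 1.02, SD, n = 2) over the 61 genes that have such a model. Over all 5978 genes with both types the medians were 26.4% and 27.1%. By share of counts the order was the other way, 17.7% and 20.2% for the 61 genes against 15.1% and 15.5% for all. The weights differ because TPM divides by length. In sum over the genes, retained-intron models carried 17.9% and 20.6% of the TPM of the 76 genes, and 22.7% and 27.1% of their counts. Over all genes with a protein-coding transcript the sums were lower, 17.0% and 17.7% of TPM and 11.8% and 12.5% of counts. Gene by gene, the share of TPM was higher in replicate 2 in 34 of the 61 genes and lower in 27.

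The 8 genes with the highest share span both subunits. In Rpl5, which with Rpl11 and 5S rRNA forms the particle that binds MDM2, retained-intron models held 89.5% of the TPM in replicate 1 and 90.01% in replicate 2. The TPM was spread over Rpl5-204 (7.48 and 7.97 TPM), Rpl5-202 (6.85 and 8.45) and Rpl5-205 (4.73 and 8.53), while the coding model Rpl5-201 had 1.98 and 1.70. Both libraries thus placed 3 intron-containing fragments above the spliced form. In Rps16, whose tail reaches the decoding site, the share was 86.0% and 89.9%, most of it on Rps16-203 (11.5 and 19.8 TPM), whose acceptor is shown above.

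Rpl3 had the largest counts behind such a share. Rpl3-204, which holds the 583-base intron, received 1470 and 1699 counts, and the coding Rpl3-201 received 604 and 243. The retained-intron share was 67.1% in replicate 1 and 80.6% in replicate 2 (73.8% ± 9.53, SD, n = 2). A second model, Rpl3-206, with 523 and 600 counts, holds a 515-base intron that contains the snoRNA gene Gm22077. Rpl3 shares 535 bases with Syngr1 on the opposite strand, and strandedness is not given in the sources used here.

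Rpl37 stood at 69.3% and 74.9%, Rps26 at 75.3% and 66.7%, Rpl27a at 50.2% and 60.0%, and Rpl10a, a protein of the mobile L1 stalk, at 53.4% and 54.1%. In these 4 genes the libraries differed by less than 10 percentage points. Rps20 stood at 80.5% and 71.7%, but this rests on length: the short retained-intron model Rps20-201 (582 bases) had 275 and 89.4 counts, while the coding model Rps20-203 (3706 bases) had 727 and 420. By counts, 70.3% and 79.8% of Rps20 was protein_coding. At the other end, Rpl23a (0.49% and 0%), Rplp0 (3.39% and 1.38%) and Rpl19 (2.66% and 2.68%) had almost none of their TPM on the retained-intron models they have. Rplp0 encodes a stalk protein often used as a reference gene.

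The libraries gave like retained-intron shares across genes (Pearson r = 0.924 and Spearman rho = 0.922, n = 61 genes that share both libraries, a description without a test). The largest exceptions were Rpl14, at 22.02% and 64.62%, on 271 and 205 counts for the whole gene, Rps25, at 25.3% and 51.0%, Rpl28, at 17.3% and 39.4%, and Rps19, at 37.3% and 15.9%. In Rps19, mutated in Diamond-Blackfan anaemia, the short model Rps19-206 took 80.1 counts in replicate 1 and 0 in replicate 2, and the other quantification gave it 117 and 83.1. These genes were singled out after their values were seen.

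**Figure D3:**
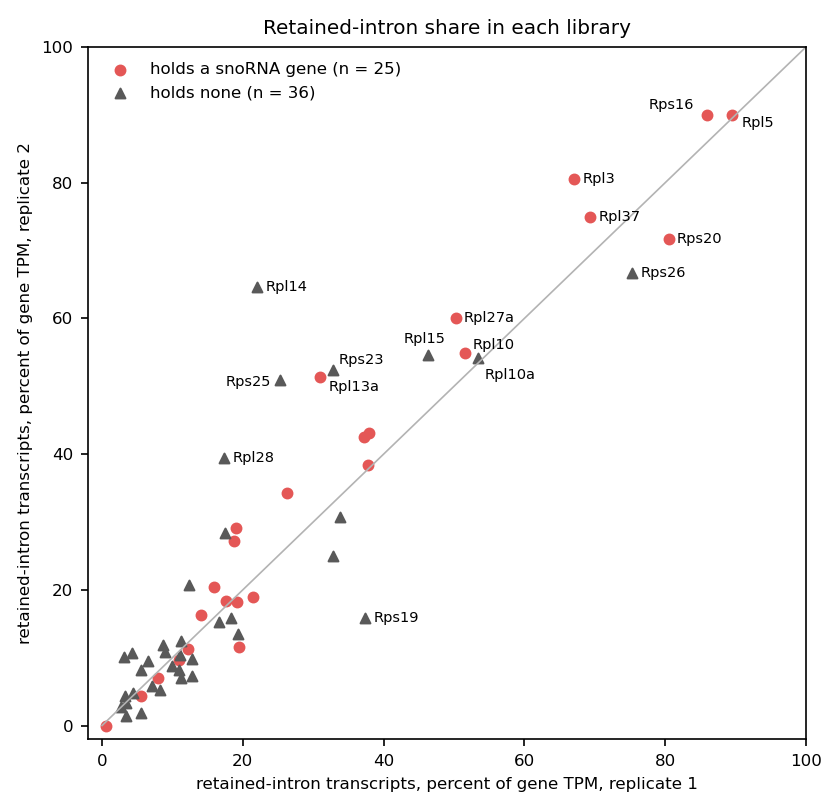
Retained-intron share of gene TPM in replicate 1 (x axis) and replicate 2 (y axis) for the 61 genes with such a model; circles hold a snoRNA gene, triangles do not, and the line marks equal shares. Rpl5 and Rps16 lie at the upper right, and Rpl14 lies farthest above the line.

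snoRNA genes were annotated inside 29 of the 76 genes, 56 snoRNA genes in all. snoRNAs are cut from introns and guide chemical changes of ribosomal RNA. Under 50% of the TPM was on protein_coding transcripts in 10 of the 29 hosts and in 3 of the 47 other genes, where the share over all genes was 16.8%. By counts it was 8 hosts and 5 others, against 11.2% of all genes. In the other quantification it was 12 and 6 by TPM and also by counts, against 31.9% and 17.0% of all genes. The median retained-intron share was 21.4% and 29.1% in the 25 hosts that have such a model, against 11.2% and 10.7% in the 36 others. By counts these medians were 22.4% and 26.0% against 15.87% and 16.03%. Of the 171 annotated retained-intron models, 82 belong to these 25 hosts, and the part of this number in the shares was not tested. The median protein_coding share was 73.7% and 60.1% in hosts and 87.2% and 87.6% in the others, while TPM levels were alike, with medians of 25.8 and 26.7 in hosts and 26.7 and 26.6 in the others.

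Most retained-intron counts of the hosts were on models without the snoRNA. Of 82 retained-intron models of hosts, 27 hold a snoRNA gene, and they carried 40.2% of the hosts' retained-intron counts in replicate 1 and 37.6% in replicate 2. Rpl5-204 is such a model and holds Snord21, but Rps16-203, Rps20-201 and Rpl3-204 hold none. The snoRNAs themselves were hardly counted: 44 of the 56 had 0 counts in both libraries, and 4 in replicate 1 and 3 in replicate 2 reached 10. They are 65 to 203 bases long, below the labelled size range, and the part of this in the low counts was not tested.

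Nonsense-mediated decay models held 3.03% of the summed TPM of the 76 genes in each library, against 2.66% and 2.83% over all genes with a protein-coding transcript. In the other quantification the order turned, with 2.52% and 2.83% for the 76 genes against 3.53% and 3.51%. In the first quantification they led in both libraries in 3 genes, Rpsa and Rpl12 among them. In Rpsa, the laminin receptor precursor of the small subunit, Rpsa-206 held 55.2% of the TPM in replicate 1 and 44.5% in replicate 2 (49.9% ± 7.55, SD, n = 2), on 495 and 389 counts. In Rpl12, a protein at the base of the stalk, Rpl12-201 held 43.9% and 50.1% (47.0% ± 4.38), on 163 and 151 counts.

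The values for Rpl12 depended on the quantification. In the other one, Rpl12-201 had 17.1 and 43.6 counts and the coding Rpl12-203 had 0 in both, while Rpl12-207, a retained-intron model, led. Rpsa-206 kept 557 and 606 counts there. Rpl13a, whose protein also leaves the ribosome in interferon-treated myeloid cells to silence inflammatory mRNAs, had 27.3% and 21.3% on such models, Rps13 14.5% and 35.5%, and Rps19 9.25% and 11.5%.

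Segments that set such models apart from the coding ones are shown for Rpsa and Rpl3. Rpsa had the highest mean share, within the spread of Rpl12, and the Rpl3 segment lies inside the intron named above. Both sequences are from the GENCODE M21 transcripts. The stop codon that closes the reading frame is in capitals where it falls inside the segment.
Rpsa-206 segment, chr9:120130045-120130117, plus strand: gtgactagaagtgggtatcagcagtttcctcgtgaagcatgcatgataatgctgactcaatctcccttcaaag
Rpl3-205 segment, chr15:80081032-80081211, minus strand: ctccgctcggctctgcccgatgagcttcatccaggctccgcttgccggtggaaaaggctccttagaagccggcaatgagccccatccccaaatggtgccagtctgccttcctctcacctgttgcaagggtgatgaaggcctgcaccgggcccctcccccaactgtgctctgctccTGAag
The Rpl3-205 segment covers the last 180 bases of the 583-base intron of Rpl3-204, and its TGA stands 138 bases before the last exon junction. Rpl3-205 held 7.02% and 7.21% of the gene's TPM, on 102 and 89.9 counts. The 73 bases of the Rpsa-206 segment do not hold its annotated stop codon, which follows downstream, 464 bases before the last junction.

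Processed transcripts held 3.44% and 3.58% of the summed TPM, less than the 4.79% and 4.98% over all genes with a protein-coding transcript. By counts the order was the other way, 2.83% and 2.99% against 1.958% and 2.130%. They were largest in Rps23, a protein of the decoding centre, where Rps23-203 held 45.2% in replicate 1 and 32.9% in replicate 2. Rpl23 followed with 24.4% and 47.2%, Rpl27 with 25.4% and 40.0%, and Rpl11 with 33.2% and 29.6%. In Rpl23 most of the gap came from Rpl23-204, with 0.32 and 111 counts.

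How a share was weighed mattered for single genes more than for the median. The median protein_coding share by counts was 79.4% and 78.9%, close to that by TPM, but over all genes it was 89.6% and 89.3%. By counts the number of genes under 50% was again 13, 17.1%, against 11.2% of all genes. In Rpl35a, protein_coding models held 66.2% and 69.3% of the TPM but 26.82% and 25.03% of the counts, because Rpl35a-206 is a retained-intron model of 2858 bases with 240 and 154 counts. In Rps24 the short coding model Rps24-201 (468 bases) held 61.9% and 74.3% of the TPM on 647 and 691 counts, while the longer coding model Rps24-210 (1613 bases) held 20.9% and 15.5% on 1209 and 812.

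The other quantification gave the 76 genes 62547 and 55959 counts, 0.191% and 0.184% of its total. Its log2 count over the first had a median of 0.27 in replicate 1 and 0.63 in replicate 2 for the 76 genes, and of 0.36 and 0.68 for the protein-coding genes whose counts averaged 50 or more. None of the 76 had more than 2-fold fewer counts in both libraries, as did 0.0601% of those genes, and Rpl35a and Rpl36 had more than 2-fold more, as did 6.27%. At the low end, Rps12 and Rpl12 had fewer counts in the other quantification, Rps12 from 935 to 414 counts in replicate 1 and from 671 to 438 in replicate 2, and Rpl12 from 498 to 243 and from 398 to 282. Rpl10 also had fewer, from 1830 to 1337 and from 1336 to 1233 counts. The next lowest ratios belonged to Rpl28 (365 to 350 and 298 to 365), fewer in replicate 1 and more in replicate 2, and Rps2 (1251 to 1309 and 1084 to 1322), more in both.

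Upward, Rpl36 went from 108 to 237 counts in replicate 1 and from 28.0 to 118 in replicate 2. Rpl35a went from 420 to 898 and from 234 to 593. Rpl27 and Rpl39 followed, with mean log2 differences of 1.03 and 0.97.

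**Figure D4:**
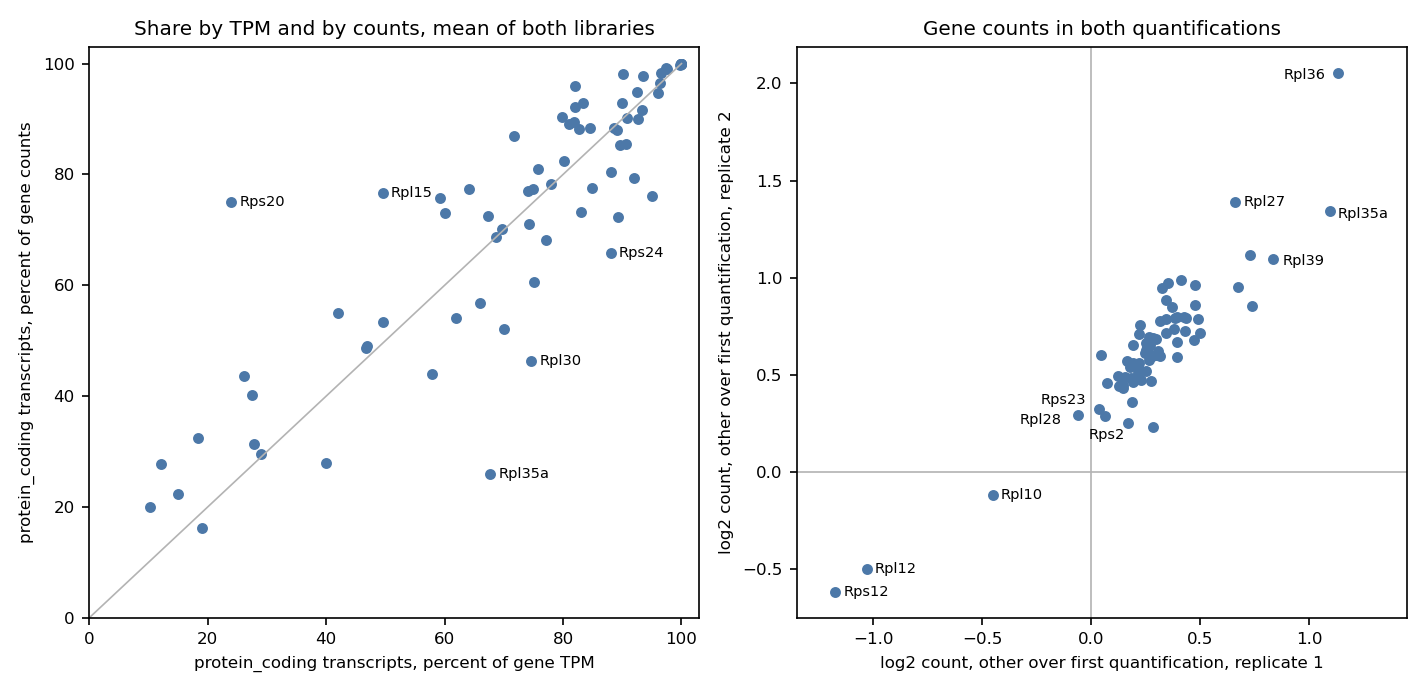
Left, protein_coding share of each gene by TPM and by counts, mean of both libraries; right, log2 ratio of gene counts, other over first quantification, in replicate 1 (x axis) and replicate 2 (y axis). Rps20 and Rpl35a lie farthest from the line of equal shares, and Rps12, Rpl12 and Rpl10 lie below 0 on both axes on the right.

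Ribosomal protein genes have many processed pseudogenes, near-copies of the mRNA without introns, and reads that fit both cannot be placed with certainty. The annotation names 297 after 59 of the 76 genes, of which 6 are typed protein_coding, Rpl10-ps3 and Rps12-ps3 among them. In the first quantification 198 of them had 0 counts in both libraries, and together they held 1086 and 1146 counts, 2.03% and 2.98% of the counts of genes and pseudogenes (2.50% ± 0.671, SD, n = 2). In the other quantification they held 3281 and 3091 counts, of which the 6 typed protein_coding held 1303 and 1061.

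The families most affected differed between the quantifications. In the first, pseudogenes held 28.5% and 36.4% of the Rpl36 family, 24.8% and 30.8% of the Rpl27 family, 20.4% and 13.6% of the Rpl31 family, 9.66% and 23.7% of the Rpl15 family, 14.9% and 11.6% of the Rps2 family and 8.82% and 15.5% of the Rps26 family. In the other, they held 61.6% and 48.0% of the Rps12 family, mostly on Rps12-ps3 (610 and 344 counts, against 5.18 and 7.93 in the first). Rpl10-ps3 on chromosome 9 received 690 and 717 counts there, against 33.3 and 78.8 in the first, and pseudogenes held 34.8% and 37.5% of the Rpl10 family. The coding model Rpl10-201 had 762 counts in the first and 154 in the other for replicate 1, and 481 and 0 for replicate 2. Levels of Rps12 and Rpl10 are uncertain to this extent. The Rpl28, Rpl36, Rps23 and Rps16 families stood between 16.5% and 40.0% in the other quantification. Besides pseudogenes, 25 of the 76 genes overlap another gene that is no small RNA, 21 of them on the opposite strand.

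Between the libraries, each gene's log2 ratio was taken from normalised counts as replicate 2 divided by replicate 1. Of the 76 genes, 64 were lower in replicate 2 and 12 higher, with a median of −0.23. Of all 9443 detected protein-coding genes, 4797 were lower and 4646 higher, with a median of −0.01. The 76 genes are short, and the 899 other detected protein-coding genes within their central range of effective length (268 to 901 bases) also had a median of −0.23. Of these 899 genes, 642 were lower in replicate 2 and 257 higher. A ratio of TPM uses each library's own effective lengths and leaves out the scaling of the normalised counts. By that ratio the median of the 76 genes was 0.02. The median TPM of the 9443 detected genes was 7.30 in replicate 1 and 8.56 in replicate 2. The 2 ratios thus have unlike zero points, and no direction is given for the family. The starting quantity of RNA also differed between the libraries, and its part was not tested.

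Among genes averaging 50 counts or more, those past 2-fold were Rpl36 and Rps21, both lower, 2 of 76. Among 9995 protein-coding genes at that count 2.56% were past 2-fold lower and 0.84% higher, so the count is near the background, and 0 of the 76 were past 2-fold higher. Rpl36 had 108 counts in replicate 1 and 28.0 in replicate 2, a log2 ratio of −1.65 with a 95% interval of −2.25 to −1.06 that covers counting error only. Rps21 had 375 and 154 counts (−1.01, from −1.28 to −0.74), and Rps29 had 476 and 205 (−0.94). All 3 encode very small proteins on short mRNAs. At the other end stood Rps16 (0.25), Rpl10a (0.22) and Rpl3 (0.20), with 254 and 250, 816 and 788, and 2904 and 2756 counts.

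**Figure D5:**
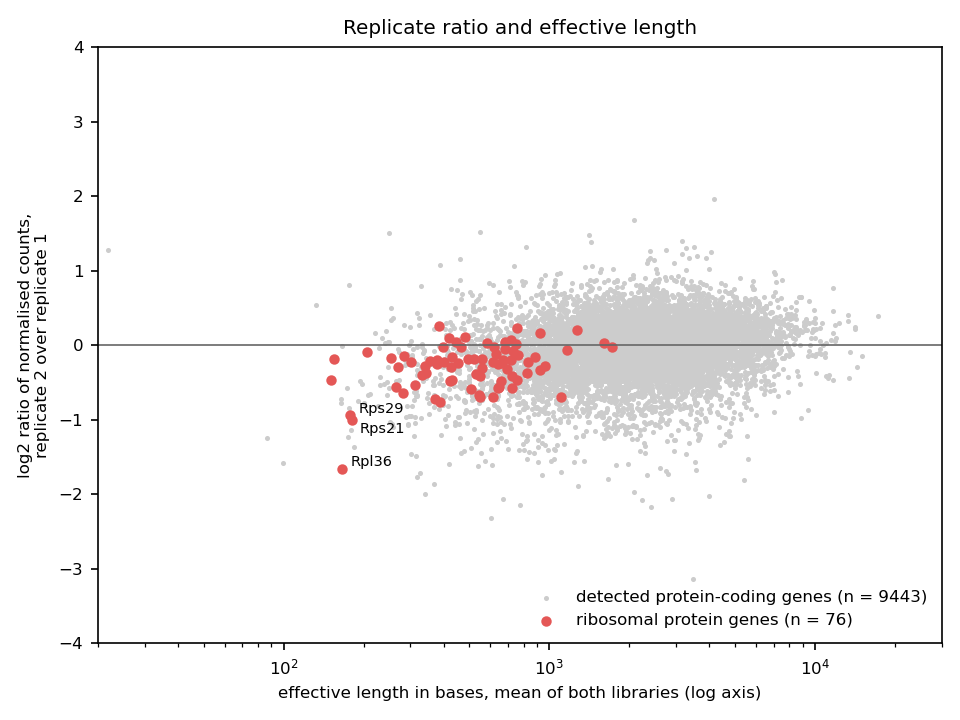
Log2 ratio (normalised counts in replicate 2 over those in replicate 1) against effective length (log axis) for the 76 genes (red) and the 9443 detected protein-coding genes (grey; the 76 are among them). Rpl36, Rps21 and Rps29 lie at the short end and lowest among the 76.

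Short lengths are shared by most of the genes. The median gene spans 3266 bases, from 828 (Rpl36) to 31449, against 23759 for detected protein-coding genes, and its longest coding transcript has 925.5 bases and 5 exons, against 3089 bases and 9 exons. The genes lie on 19 chromosomes, with 14 on chromosome 7.

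Genes of related function gave the following levels, with no test of any difference. Fau, whose ribosomal protein is made as a fusion with a ubiquitin-like protein, stood at 69.4 and 81.5 TPM, with 98.4% and 95.3% of its TPM on protein_coding transcripts. Rps3a1 stood at 36.2 and 45.0 TPM. The paralogs Rpl3l, Rpl10l and Rpl39l, known from muscle or the male germ line, were listed at 0 in both libraries, and Rpl22l1 stood at 6.81 and 7.30. Of the 11 paralogs and genes with like names examined, Rps3a1 among them, 6 were detected.

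All 17 other genes known for TOP mRNAs were detected, at a median of 20.4 and 27.5 TPM, led by the elongation factor Eef1a1 at 219 and 302. All 9 genes listed as readers of TOP mRNAs or parts of the mTOR pathway were detected as well. Larp1 stood at 32.3 and 27.6 TPM and Mtor at 5.65 and 6.65. Of 22 genes of ribosome assembly 20 were detected, at a median of 3.97 and 4.62 TPM.

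The mitochondrial ribosomal proteins are the nearest functional parallel. Of 78 genes 76 were detected, at a median of 4.20 and 4.18 TPM, and 48 of them had a median retained-intron share of 28.6% and 36.1%. Respiratory chain subunits, with 74 of 82 detected, stood at a median of 8.53 and 7.82 TPM and a retained-intron share of 20.6% and 21.6% over 46 genes. Set beside these, the cytosolic ribosomal protein genes had the highest median TPM of the 3 lists and the lowest median retained-intron share by TPM.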

How the data were processed

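Ribosome-depleted nuclear RNA of 2 libraries was analysed as 1 group. Per the file headers, the deposited gene and transcript tables hold expected counts, TPM, the percent of gene TPM on each transcript and a score, the SD of each count from read assignment. They were derived from alignments to the transcriptome. The deposited tables of the other quantification hold estimated counts and TPM derived directly from reads. Both use mm10 and GENCODE M21, per the text deposited with the files. The aligner, the quantifiers and strandedness were not given in the sources used here.

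The genes and lists were chosen with earlier results of these data known. Named genes are extremes of each measure by a written rule; a few genes enter the counts and medians but are not reported here by name. Counts were rounded, scaled by TMM factors (edgeR 4.0.16) over genes averaging 10 counts or more, and compared as log2 ratios with 0.5 added. DESeq2 1.42.0 gave alternative size factors. The ratio was also tried on simulated counts in which some genes changed 2-fold. That simulation held no shift by gene length between libraries, so it cannot speak to such a shift here. Sequences came from GENCODE transcripts and RefSeq windows. Correlations across genes are descriptions.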

Additional observations from a re-analysis of the deposited data

How the results depend on the processing

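No paired analysis was possible because the series holds a single group. With 2 libraries, no test was made, and the median gene had 576 and 375 counts, which limits shares of single transcripts. Leaving out 1 library gave a median TPM of 26.62 to 26.63, a count share of 0.2068% to 0.2144% and a protein_coding median of 79.47% to 82.04%. The retained-intron median was then 15.89% to 17.33%, the decay share 3.032% to 3.034% and the pseudogene share 2.03% to 2.979%. In a single library 15 to 16 genes were mostly outside protein_coding models. The share of all genes given above required both libraries, so it is no background for that count. The other quantification gave a median TPM of 12.77, a count share of 0.1874%, medians of 72.22% protein_coding and 23.89% retained-intron, 2.672% on decay models, 18 genes (23.7%, against 31.9% of all genes) mostly outside protein_coding models, 5.109% on pseudogenes and 1 gene past 2-fold (Rpl36). No median TPM over all genes was taken in the other quantification, so 12.77 is not read as a lower level. Shares by counts there, chosen after seeing the data, were 74.24%, 23.38% and 2.774%. By counts there, 18 genes (23.7%) were again mostly outside protein_coding models, but against 17.0% of all genes. In the first quantification, shares by counts were 18.92% retained-intron and 3.205% on decay models, and pseudogenes held 4.536% of TPM. The median log2 ratio became 0.02 (0.01906) by TPM, which uses each library's lengths and no TMM factor. It stayed between −0.27 and −0.22 under the other settings. Only 1 gene was past 2-fold by TPM (Rpl36), with 5 added to each count (Rpl36), and among genes averaging at least 100 counts (Rps21). The share of all protein-coding genes past 2-fold was not computed for these settings or for the other quantification.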
